A study of Mus musculus with 12 samples.

Results

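Ly6Clo monocytes of mouse bone marrow were compared with the macrophages of the same organ, taken as the equally weighted mean of an embryo-derived and an adult-derived group. The comparison was defined by the sample labels alone: 3 Ly6Clo libraries against 6 macrophage libraries, 9 of the 12 libraries of the series. The remaining 3 libraries, of Ly6Chi monocytes, entered the same fit and serve to show where the Ly6Clo monocytes differed from the other monocytes. All cells came from the bone marrow of female C57BL/6J mice 8 weeks old that carried Rank cre/+;R26.eYFP fl/+, a Rank-cre driver that switches on eYFP in embryonic macrophages and their progeny but not in adult hematopoietic stem cells. The groups were therefore Ly6Clo monocytes, Ly6Chi monocytes, eYFP+ macrophages of embryonic origin and eYFP- macrophages of adult origin, with 3 libraries each. Macrophages were sorted as F4/80+ CD206+ VCAM1+ cells and monocytes as CD11b+ cells separated from eosinophils by scatter, both from Gr1low CD45+ cells without B220 and CD3, so the levels of Adgre1, Mrc1 and Vcam1 describe the gate and are no finding. An eYFP- macrophage is one in which the reporter was not switched on, which is not by itself proof of an adult origin. The labels do not say whether the 3 libraries of a group came from separate mice, so the p-values measure the spread between these samples, which may be technical.

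Ly6Clo monocytes are non-classical monocytes. They arise from Ly6Chi monocytes, need the nuclear receptor Nr4a1 and the factors Klf2 and Cebpb, circulate for longer than Ly6Chi cells and crawl along the inner wall of blood vessels with the integrin LFA-1. Bone marrow macrophages stay in the tissue, where those of the erythroblastic island take up the nuclei that red cell precursors expel, break down heme and hand iron back through ferroportin. Both are phagocytes, and both present antigen and bind antibodies through Fc receptors.

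Counts below are normalized counts, that is read pairs per gene divided by a size factor for each library, and serve to compare 1 gene between libraries. They are not corrected for gene length. A log2 fold change is given ± its standard error from DESeq2, with Ly6Clo as the first term, so a positive value means higher in Ly6Clo monocytes. A gene was called at a DESeq2 adjusted p under 0.05, adjusted over all genes tested. In bulk samples fewer cells of a type and less RNA per cell cannot be told apart.

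The libraries held 26390927 to 48618187 counts. Ly6Clo replicate 2 stood apart: 16434 genes had a count there, against 24769 and 22254 in replicates 1 and 3, and its log2 counts correlated with theirs at 0.834 and 0.836 across 16707 genes, against 0.948 between those replicates. Genes rich in G and C were low in it, with a median log2 ratio to the other Ly6Clo libraries of -1.36 over the 1671 such genes (median GC content 59%), and eYFP+ replicate 1 was shifted the same way by -0.72. The difference of each gene from the macrophage mean was therefore also computed without Ly6Clo replicate 2. Values of single genes against Ly6Chi monocytes, or against 1 macrophage group alone, are given with all libraries only.

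The libraries also held RNA of marker genes of other cells, which moved with the groups. The summed TPM (transcripts scaled to gene length and library) of the list of neutrophil and neutrophil precursor genes was 6880.2 to 17005 in the Ly6Clo libraries, 124 to 216 in eYFP+ macrophages, 264 to 2786 in eYFP- macrophages, highest in replicate 2, and 16300.5 to 24617 in Ly6Chi monocytes. Red cell genes went the other way, with a sum of 562 to 1442 TPM in Ly6Clo monocytes, 9003 to 15013 in eYFP+ and 23112 to 36966 in eYFP- macrophages. In the Ly6Clo libraries the Ly6Chi monocyte list summed to 30459.9 to 35262 TPM, against 80534 to 83559.6 in the Ly6Chi libraries themselves. The B and plasma cell list summed to 809, 1465 and 629 TPM in Ly6Clo replicates 1, 2 and 3 and to 485 to 722 in macrophages. The T and NK cell list summed to 28.2 to 46.9 TPM in the Ly6Clo libraries and 134 to 261 in macrophages. The megakaryocyte list summed to 60.5 to 77.4 and 124 to 203. Within these lists Ms4a1, Jchain, Trac, Cd8a, Gp1ba, Gp5 and Treml1 had no count in any Ly6Clo library. Prg2, a granule protein of eosinophils, had 12.7, 0 and 9054 normalized counts in Ly6Clo replicates 1, 2 and 3 and 36.2 to 14755 in macrophages, so that among the Ly6Clo libraries it was high in replicate 3 alone. Over all tested genes 13.2% were called higher and 17.0% lower in Ly6Clo monocytes than in macrophages, and the counts of the marker lists stand beside these shares. Of 15 neutrophil genes tested 10 were higher and 3 lower in Ly6Clo monocytes than in macrophages; without Ly6Clo replicate 2, 4 were higher, since 6 were then given no adjusted p for an outlying count, and without replicate 1 or 3, 5 were. Of 16 red cell genes 15 were lower, and of 9 Ly6Chi monocyte genes 5 were higher. Of 12 T and NK cell genes 5 were lower, or 3 without Ly6Clo replicate 1 or 2 or eYFP- replicate 2 or 3. The eosinophil, basophil and mast cell list had 2 higher and 4 lower of 10, with 2 lower without replicate 2 or 3 of either macrophage group and 1 higher without Ly6Clo replicate 1 or 3, eYFP+ replicate 1 or 3, or any eYFP- replicate. B and plasma cell genes had 2 higher, 1 without Ly6Clo replicate 1 or 3, and 2 lower of 10. The dendritic cell list had 4 higher and 3 lower of 12, and 5 of 9 megakaryocyte genes were lower. Of 12 stem cell genes 1 was higher and 1 lower, the latter not without Ly6Clo replicate 3, and of 11 stromal genes 1 was higher, not without Ly6Clo replicate 1, and 2 lower. The part of these cells in the results below was not tested.

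**Figure D1:**
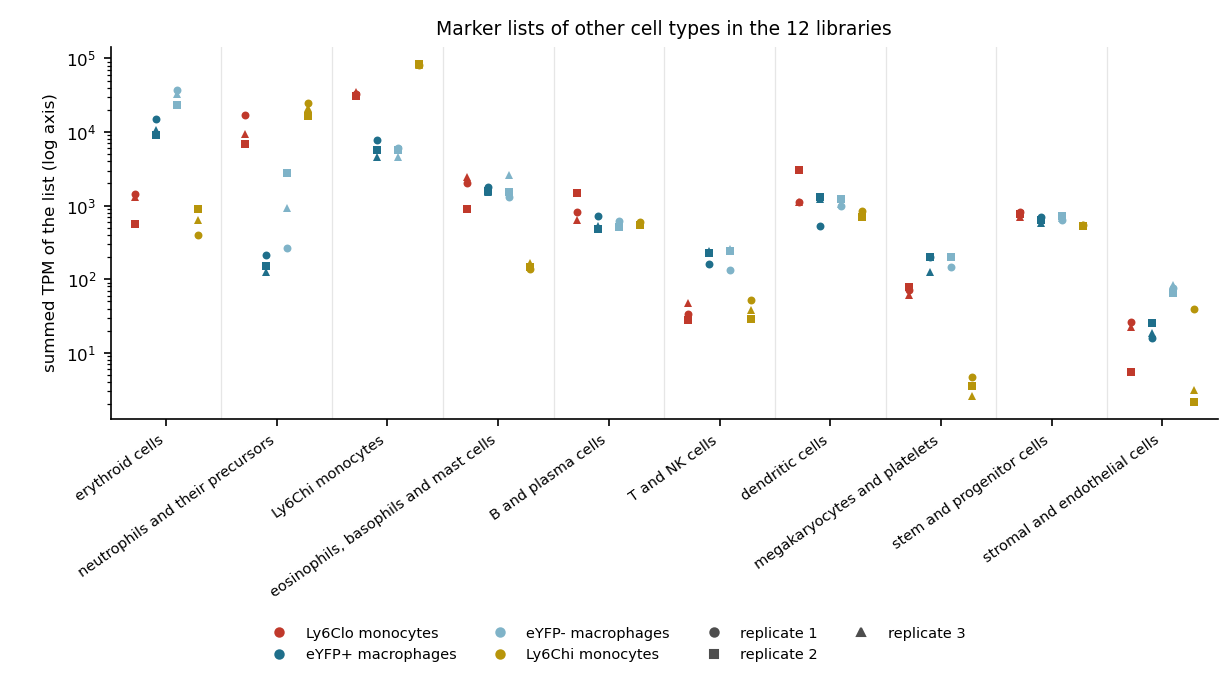
Summed TPM (log axis) of 10 marker lists of other cell types in each of the 12 libraries. Points are libraries, coloured by group and shaped by replicate. The red cell list was at 562 to 1442 TPM in the Ly6Clo libraries and at 9003 to 36966 in the macrophage libraries, and the neutrophil list at 6880.2 to 17005 and 124 to 2786.

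Of 22385 genes tested, 6762 (30.2%) were called between Ly6Clo monocytes and the macrophage mean, 2955 higher (13.2%) and 3807 lower (17.0%) in Ly6Clo monocytes. The median log2 fold change of all tested genes was -0.07. Without Ly6Clo replicate 2, 13.9% of 22415 tested genes were higher and 16.6% lower, and 5509 of the calls were shared, 81.5% of the first set and 80.8% of the second, all in the same direction. edgeR's quasi-likelihood test placed 13.4% of 19189 genes higher and 14.8% lower. Correcting each library for GC content and gene length changed the split to 4721 higher and 2924 lower, with 5619 calls shared with the uncorrected fit, so the balance of higher and lower calls depends on this correction. It moved the median log2 difference of all tested genes from -0.07 to 0.26, and moved 44 of 135 called genes followed singly by over 1.5-fold, all 44 towards higher values in Ly6Clo monocytes. Over the 18 lists of genes by function, 273 of 277 different genes were tested, and 73 were higher, 99 were lower and 101 did not pass.

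The label of the Ly6Clo libraries was checked against the defining genes of these cells. Against Ly6Chi monocytes, 12 of 18 were higher in Ly6Clo monocytes and 6 did not pass: Spn (1.31 ± 0.68, adjusted p = 0.252), Klf2 (0.91 ± 0.42, adjusted p = 0.182), S1pr5 (3.24 ± 1.33, adjusted p = 0.114), Cebpb (0.98 ± 0.77, adjusted p = 0.509), Pou2f2 (0.97 ± 0.55, adjusted p = 0.311) and Cx3cr1 (0.16 ± 0.52, adjusted p = 0.913). Of 18 genes on this list 16 were higher than in macrophages, 1 was lower and 1 did not pass, with a median log2 fold change of 2.90. The counts were the same without Ly6Clo replicate 2 and with edgeR. Nr4a1, the nuclear receptor on which these cells depend, had 36979.6, 20654 and 37674 normalized counts in Ly6Clo replicates 1, 2 and 3. In the 6 macrophage libraries it had 853 to 1486 with a median of 1202. The groups were well apart, with a log2 fold change of 4.77 ± 0.33 (DESeq2 adjusted p = 9.33e-46). Klf2, which acts with Nr4a1 in these cells, had 2123, 1139 and 1593 against 91.6 to 229 in macrophages (3.40 ± 0.37, DESeq2 adjusted p = 8.66e-19). Itgal, the alpha chain of LFA-1, had 39980.2, 100273 and 43411 in Ly6Clo monocytes, highest in replicate 2, and 154 to 1139 in macrophages (7.23 ± 0.40, adjusted p = 6.1e-70). Ace, the angiotensin-converting enzyme, had 17345, 5218 and 12342 against 23.8 to 168 (7.88 ± 0.50, adjusted p = 2.72e-54). Spn, the sialomucin CD43 by which these monocytes are often recognised, had 3155, 1951 and 3135 against 3.09 to 42 in eYFP+ and 204 to 292 in eYFP- macrophages (5.46 ± 0.59, adjusted p = 1.95e-18). Its fold change rested in part on eYFP+ replicate 2, without which it was 6.57.

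S1pr5, the sphingosine phosphate receptor that Ly6Clo monocytes need to leave the bone marrow, had 24896, 3151 and 26445 normalized counts in the 3 Ly6Clo libraries, with replicate 2 the lowest. Macrophage libraries held 0 to 97.7, which gave the log2 fold change of 9.48 ± 1.16 (DESeq2 adjusted p = 9.46e-15); without eYFP+ replicate 2 it was 12.23. Not every gene of the list set these monocytes apart from macrophages. Treml4, a receptor used to mark Ly6Clo monocytes in blood, had 26720.2, 65740.4 and 33066 in them and 19528 to 40476 in macrophages, and the groups overlapped (0.77 ± 0.36, adjusted p = 0.0931). It passed with the GC and length correction (1.36, adjusted p = 0.00557), with total-count scaling (0.83, adjusted p = 0.0485), without Ly6Clo replicate 1 (1.01, adjusted p = 0.0352) and without eYFP+ replicate 1 (0.97, adjusted p = 0.0152). Fabp4, a fatty acid carrier, was the member that was lower, with 6029, 3400.4 and 8281 against 9249 to 13431 in macrophages (-0.90 ± 0.30, adjusted p = 0.0116), although Ly6Chi monocytes held only 66.8 to 94.7. Its difference from macrophages was -0.57 without Ly6Clo replicate 2, and the GC and length correction ended the call (-0.59, adjusted p = 0.0983). Adgre4, a relative of F4/80, was higher by a smaller step, 58738, 102567 and 61042 against 19109 to 54136 (1.19 ± 0.29, adjusted p = 0.00036).

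**Figure D2:**
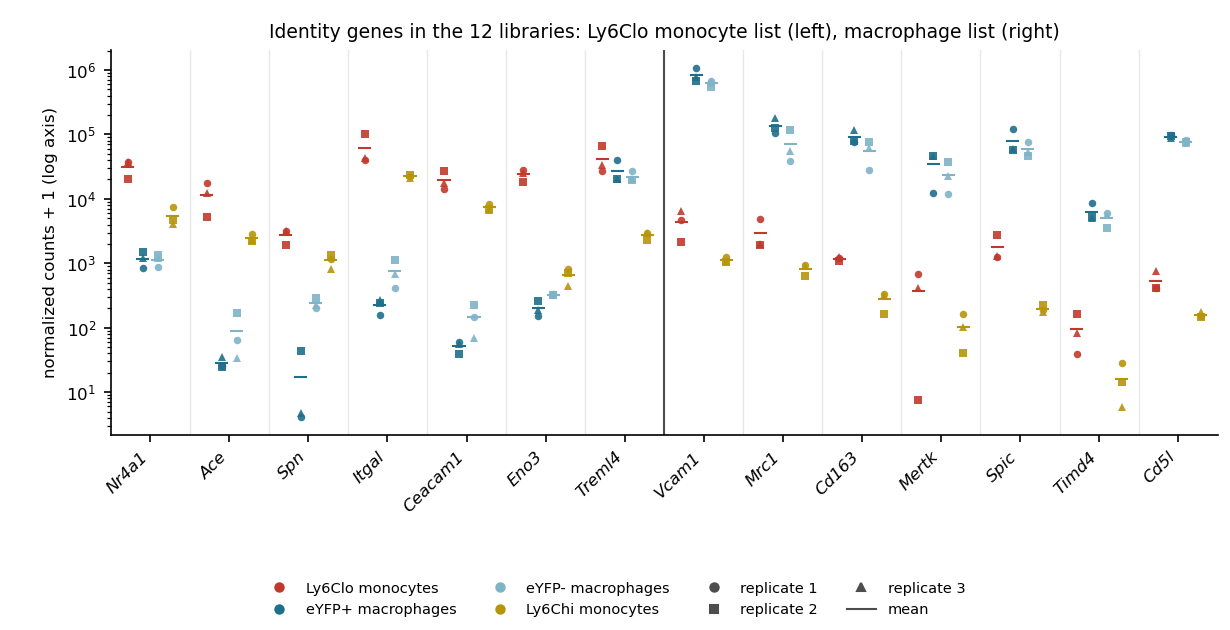
Normalized counts plus 1 (log axis) of 7 genes of the Ly6Clo monocyte list, left of the vertical line, and 7 genes of the bone marrow macrophage list, right of it, in the 12 libraries. Points are libraries and short lines are group means. Nr4a1, Ace, Spn, Itgal, Ceacam1 and Eno3 lie above both macrophage groups in every Ly6Clo library, Treml4 overlaps them, and the 7 macrophage genes lie below them.

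The 10 genes most firmly higher in Ly6Clo monocytes, chosen by the size of the DESeq2 test statistic among 1281 genes whose groups did not overlap and that also passed without Ly6Clo replicate 2, were Susd3, Tcea3, Lsp1, Sgms1, Eno3, Ly6i, Sirpb1c, Dnah12, Ceacam1 and Adora2b. Their log2 fold changes ran from 5.28 for Sgms1, a sphingomyelin synthase, to 9.48 for Ly6i, a surface protein of the Ly6 family. Ly6i and Sirpb1c have close relatives in sequence, so their counts are uncertain. Tcea3, a transcription elongation factor of the TFIIS family, had 3518, 4161 and 4236 normalized counts in Ly6Clo monocytes and 0 to 25.1 in macrophages (8.70 ± 0.34, DESeq2 adjusted p = 3.98e-139; 9.28 without eYFP+ replicate 2). Dnah12, a dynein heavy chain known from cilia, had 1962, 2504 and 2334 against 2.74 to 10.4 (8.30 ± 0.40, adjusted p = 3.63e-93). Eno3, the enolase of muscle, had 27716, 18492 and 25614 against 150.3 to 339 (6.55 ± 0.29, adjusted p = 2.01e-112). These 3 genes also separated Ly6Clo from Ly6Chi monocytes, by 2.45 ± 0.31 for Tcea3, 4.93 ± 0.41 for Dnah12 and 5.18 ± 0.33 for Eno3 on the log2 scale (DESeq2 adjusted p = 5.92e-13, 1.77e-30 and 1.06e-51). Susd3, a membrane protein with a sushi domain, was as clear against macrophages, with 13923, 22269.8 and 14593 against 46.6 to 223 (7.21 ± 0.27), but it did not pass against Ly6Chi monocytes (0.73 ± 0.31, adjusted p = 0.125). Ceacam1, an adhesion molecule, had 14146, 26639 and 17600.2 against 38.1 to 222 (7.83 ± 0.38), and Adora2b, an adenosine receptor, had 1597, 1255 and 1694 against 16.5 to 43.8 (5.51 ± 0.27). Adora2b was lower in Ly6Clo than in Ly6Chi monocytes (-0.99 ± 0.29, adjusted p = 0.0105), whereas Ceacam1 was higher (1.40 ± 0.43, adjusted p = 0.0175).

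The 10 genes most firmly lower, of 1856 that met the same rule, were Cd5l, Pld3, Fcna, Slc40a1, Igf1, Vcam1, Tfec, Cela1, Ccr3 and Kcnj10, with log2 fold changes from -7.36 for Vcam1, a gene of the gate, to -4.82 for Tfec, a transcription factor. Cd5l, a secreted scavenger protein of tissue macrophages, had 419, 418 and 757 normalized counts in Ly6Clo monocytes and 73058 to 96812 with a median of 83931 in macrophages (-7.31 ± 0.25, DESeq2 adjusted p = 5.72e-184). Fcna, a ficolin that binds sugars on microbes, had 1162, 1727 and 1740.1 against 143294 to 264250.3 (-6.98 ± 0.26, adjusted p = 8.56e-151). Pld3, a nuclease of the lysosome, had 2450.5, 2500.0 and 3189.7 against 126869 to 180368 (-5.88 ± 0.21, adjusted p = 7.13e-165). Ccr3, best known as the eotaxin receptor of eosinophils, had 346, 592 and 431 in Ly6Clo monocytes and 35011 to 82652 in macrophages (-6.72 ± 0.33, adjusted p = 7.15e-91), and Kcnj10, a potassium channel, had 39.9, 42.9 and 28.4 against 1751 to 3137 (-6.00 ± 0.30, adjusted p = 1.05e-85). Cela1, an elastase, was lower as well (-5.92 ± 0.28, adjusted p = 8.4e-94).

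Genes that define bone marrow macrophages were lower almost throughout. Of 14 on the list 13 were lower and 1 did not pass, with a median of -4.97; the list holds the 3 genes of the gate. Cd163, the receptor for hemoglobin bound to haptoglobin, had 1219, 1066 and 1238 normalized counts in Ly6Clo monocytes against 28078 to 118439 with a median of 77176 in macrophages (-5.93 ± 0.37, DESeq2 adjusted p = 1.21e-55). Mertk, a receptor for dying cells, had 674, 6.7 and 412 against 11879.5 to 46709.6 (-6.31 ± 0.82, adjusted p = 5.5e-13). The lowest value was that of replicate 2, and the fold change was -5.68 without it and -7.10 without replicate 1. Timd4, a receptor of long-resident macrophages for phosphatidylserine, had 38.2, 162 and 83.3 against 3574 to 8499 (-5.90 ± 0.50, adjusted p = 1.09e-30), and -6.49 without Ly6Clo replicate 2. Siglec1, the sialic acid receptor CD169, had 952, 34.8 and 344 against 4194 to 22098 (-4.78 ± 0.72, adjusted p = 4.64e-10), and its fold change was -4.18 without Ly6Clo replicate 2 and -6.00 without replicate 1. Cd68, a lysosomal protein of all mononuclear phagocytes, was the 1 that did not pass, at 18348, 72045 and 20886 against 30688 to 73062 (-0.21 ± 0.43, adjusted p = 0.776). Its replicate 2 was above the others, and without it Cd68 was lower too (-1.08, adjusted p = 0.000636).

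The genes that take up heme and move iron were lower in Ly6Clo monocytes as a group, 14 of 15 with 1 that did not pass and a median of -1.83. Slc40a1 encodes ferroportin, the iron exporter. It had 2813, 2736 and 3420.3 normalized counts in Ly6Clo monocytes and 332129 to 838827 with a median of 424437 in macrophages, a difference of -7.24 ± 0.29 (DESeq2 adjusted p = 3.32e-137). Hmox1, heme oxygenase, had 10655, 1539 and 9453 against 122037 to 317980.0 (-4.78 ± 0.50, adjusted p = 2.93e-20; -4.25 without replicate 2, its lowest library). Slc48a1, which carries heme out of the phagosome, had 4727, 1324 and 4580.4 against 28022 to 49089.8 (-3.57 ± 0.38, adjusted p = 7.57e-19). Blvrb, a biliverdin reductase, had 2459.8, 2476 and 2293 against 14419 to 35539 (-3.46 ± 0.27, adjusted p = 3.77e-35). Fth1, the ferritin heavy chain, had 92354, 73356 and 95829.8 against 246583 to 371661 (-1.75 ± 0.23, adjusted p = 2.71e-13), and Ncoa4, which delivers ferritin to the lysosome, had 832, 552 and 857 against 2929 to 5297 (-2.50 ± 0.23, adjusted p = 2e-25). Ftl1, the light chain, had 41407, 82161 and 44947 against 135646 to 331371 (-1.86 ± 0.36, adjusted p = 3.43e-06), a call that the GC and length correction ended (-1.13, adjusted p = 0.0797). Ireb2, an RNA-binding sensor of iron, was the member that did not pass (0.43 ± 0.42, adjusted p = 0.483), and it was higher without eYFP- replicate 2 (0.80, adjusted p = 0.0436). Red cell precursors express several of these genes too, and their markers were higher in the macrophage libraries, as given above; their part was not tested. Against Ly6Chi monocytes the list had a median of 0.18, with 1 member higher, 2 lower and 12 that did not pass. Over all tested genes 8.62% were called in that contrast in either direction. Slc40a1 was higher in Ly6Clo than in Ly6Chi monocytes by 1.70 ± 0.33 (adjusted p = 1.9e-05), while Steap3, a reductase of iron (-2.17 ± 0.39, adjusted p = 2.72e-06), and Aco1, an RNA-binding sensor of iron (-0.80 ± 0.27, adjusted p = 0.0379), were lower.

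Of 28 hydrolases and membrane proteins of the lysosome 19 were lower, 1 was higher and 8 did not pass, with a median of -1.33. Among 16 subunits of the proton pump that acidifies the lysosome, 4 were lower, 1 was higher and 11 did not pass, with a median of -0.25, beside 17.0% lower and 13.2% higher over all tested genes; without Ly6Clo replicate 2, 6 were lower and 0 higher. Many genes of this kind carry, near their start, the letters TCACGTG, the core of the element that Tfeb and its relatives Tfe3, Mitf and Tfec bind. The promoters in the RefSeq table of build GRCm38.p6 (250 bases before to 50 after each gene start, a build other than the one of the counts) were searched for TCACGTG on either strand. All promoters held it in 3.77% (1237 of 32851), those of the hydrolase list in 32% (8 of 25 promoters, from 22 of 28 members) and those of the pump list in 30.8% (4 of 13, from 11 of 16 members). The 3 promoters shown are those of the lysosomal members with this motif that differed most firmly between Ly6Clo monocytes and macrophages: Ctsd at chr7:142387828-142388077 on the minus strand, Glb1 at chr9:114400828-114401077 on the plus strand and Lgmn at chr12:102439093-102439342 on the minus strand. Each is the 250 bases before the gene start, 5′ to 3′ on the strand of the gene, with TCACGTG or its reverse complement CACGTGA in capitals, which overlap where both are read at 1 place.
Ctsd: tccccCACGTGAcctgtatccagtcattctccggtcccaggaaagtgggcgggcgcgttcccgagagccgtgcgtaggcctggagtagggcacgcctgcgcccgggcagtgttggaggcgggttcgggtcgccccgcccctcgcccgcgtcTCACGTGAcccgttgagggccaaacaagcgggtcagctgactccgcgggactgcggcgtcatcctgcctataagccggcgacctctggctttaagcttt
Glb1: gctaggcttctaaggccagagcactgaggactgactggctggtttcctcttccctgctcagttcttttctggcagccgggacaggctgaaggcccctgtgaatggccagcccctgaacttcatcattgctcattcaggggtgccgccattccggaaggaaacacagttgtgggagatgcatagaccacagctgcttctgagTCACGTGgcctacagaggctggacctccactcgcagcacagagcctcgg
Lgmn: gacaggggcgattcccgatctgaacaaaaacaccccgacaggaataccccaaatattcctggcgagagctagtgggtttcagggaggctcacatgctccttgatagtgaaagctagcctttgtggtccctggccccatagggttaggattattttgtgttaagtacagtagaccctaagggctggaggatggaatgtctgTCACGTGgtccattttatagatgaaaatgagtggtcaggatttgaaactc

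Ctsd encodes cathepsin D, the aspartic protease of the lysosome, and its motifs begin 245, 99 and 98 bases before the start. It had 16108, 10925 and 19974 normalized counts in Ly6Clo monocytes and 276776 to 368900.2 with a median of 295944 in macrophages, -4.31 ± 0.24 on the log2 scale (DESeq2 adjusted p = 4.94e-68). Glb1, beta-galactosidase, with its motif 49 bases before the start, had 1391, 851 and 1329.7 against 3617 to 6897 (-2.24 ± 0.28, adjusted p = 1.78e-14). Lgmn, the asparagine endopeptidase legumain, with its motif 50 bases before the start, had 23129.8, 37392 and 21342 against 69624 to 167620.5 (-1.93 ± 0.33, adjusted p = 9.21e-08). Of 12 tested members with the motif 5 were lower, with a median of -0.40, and of 21 members whose promoter in the table lacks it 12 were lower and 1 higher, with a median of -0.93. This says only that these letters are or are not in this window. The proteases Ctsb, Ctsc and Ctsl were lower, with log2 fold changes of -2.02 ± 0.29, -2.41 ± 0.27 and -3.01 ± 0.35, and so was Lipa, the lipase that frees cholesterol in the lysosome (-1.98 ± 0.27). Ctsb was not called with a replicate block in DESeq2 without Ly6Clo replicate 2 (-2.20, adjusted p = 0.0976). Gusb, beta-glucuronidase, was the hydrolase that was higher, with 9517, 10144 and 11571 against 5579 to 6818 (0.78 ± 0.16, adjusted p = 6.72e-06). Ctss, the protease that trims the invariant chain of MHC class II, had 120897, 159994 and 149002 against 72297 to 159781 and did not pass (0.52 ± 0.27, adjusted p = 0.134), although it was called higher without eYFP+ replicate 1 (0.68, adjusted p = 0.00635), with the GC and length correction (0.70, adjusted p = 0.00914) and with total-count scaling (0.58, adjusted p = 0.0495). Lamp1, a protein of the lysosomal membrane, had 24064, 20722 and 12787 against 33929 to 100994 (-1.98 ± 0.39, adjusted p = 3.13e-06). With the GC and length correction these values were -3.60 for Ctsd, -1.63 for Glb1, -1.24 for Lgmn, -1.41 for Ctsb and 1.53 for Gusb, each still called.

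Of the pump subunits, Atp6v0a1, which forms the proton path, had 1120.4, 502 and 655 normalized counts in Ly6Clo monocytes and 2752 to 7111 in macrophages (-2.66 ± 0.34, DESeq2 adjusted p = 1.23e-13). Atp6v0c, Atp6v1h and Atp6ap2 were lower too, with log2 fold changes of -0.90 ± 0.22, -0.91 ± 0.22 and -1.11 ± 0.21, though Atp6v0c was not called with the GC and length correction (-0.27, adjusted p = 0.431). Atp6v0d2, a subunit known from osteoclasts, was the 1 that was higher, with 842, 1772 and 1556 against 0 to 56.2 (5.82 ± 1.83, adjusted p = 0.00707). Its call ended without Ly6Clo replicate 2 (5.66, adjusted p = 0.0533) or 3 (5.74, adjusted p = 0.0503), while the groups did not overlap in the full data.

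Genes for the uptake of dying cells and for complement C1q, which tags them, were mostly lower: 11 of 17 were lower, 3 were higher and 3 did not pass, with a median of -3.47. The 3 chains of C1q moved together. C1qa had 12685, 2434 and 7303 normalized counts in Ly6Clo monocytes against 65003 to 177926 in macrophages (-4.18 ± 0.48, DESeq2 adjusted p = 9.35e-17; -4.79 without Ly6Clo replicate 1). C1qb had 27701, 10438 and 15376 against 244059 to 338389.7 (-4.03 ± 0.32, adjusted p = 1.63e-33), and C1qc had 6708, 5657 and 4175 against 70627 to 286849 (-5.17 ± 0.41, adjusted p = 7.78e-35). In Ly6Chi monocytes all 3 were lower again, at 228 to 399, 518 to 837 and 214 to 346, so that Ly6Clo monocytes stood between the other groups. The difference between the monocyte groups was 4.71 ± 0.55 for C1qa, 4.66 ± 0.38 for C1qb and 4.40 ± 0.47 for C1qc (DESeq2 adjusted p = 5.22e-15, 2.98e-32 and 5.97e-18). Axl, a receptor of the Mertk family, was lower (-4.89 ± 0.62, and -4.31 without Ly6Clo replicate 2). So were Cd209f, a lectin (-6.16 ± 0.56, and -7.36 without that replicate), and Marco, a scavenger receptor (-4.95 ± 0.69, and -6.54). Gas6, the protein that bridges dying cells to Axl and Mertk, had 864, 0 and 475 against 926 to 8047 and did not pass (-3.47 ± 1.46, adjusted p = 0.057), but it was called without Ly6Clo replicate 1 (-4.37, adjusted p = 0.041), with limma on log2(TPM + 1) (adjusted p = 0.0361), with the macrophage libraries as 1 group (adjusted p = 0.0449) and with a replicate block in DESeq2 (adjusted p = 0.0276), while edgeR did not call it with the replicate block (adjusted p = 0.116) or without Ly6Clo replicate 2 (adjusted p = 0.118), nor did limma on log2(TPM + 0.1) (adjusted p = 0.0557). Pros1, the other bridge to these receptors, was higher, with 3264, 7082 and 2894 against 1127 to 2248 (1.57 ± 0.32, adjusted p = 1.1e-05). Mfge8, which bridges to integrins, was higher as well (1.98 ± 0.44, adjusted p = 6.01e-05), but its level differed between the macrophage groups, and the call ended when their libraries were taken as 1 group (1.50, adjusted p = 0.0815). Cd36, a receptor for oxidized lipid and dying cells, had 19931, 58532 and 26900.0 against 4277 to 7207 (2.78 ± 0.35, adjusted p = 1.48e-13) and 479.8 to 759 in Ly6Chi monocytes.

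**Figure D3:**
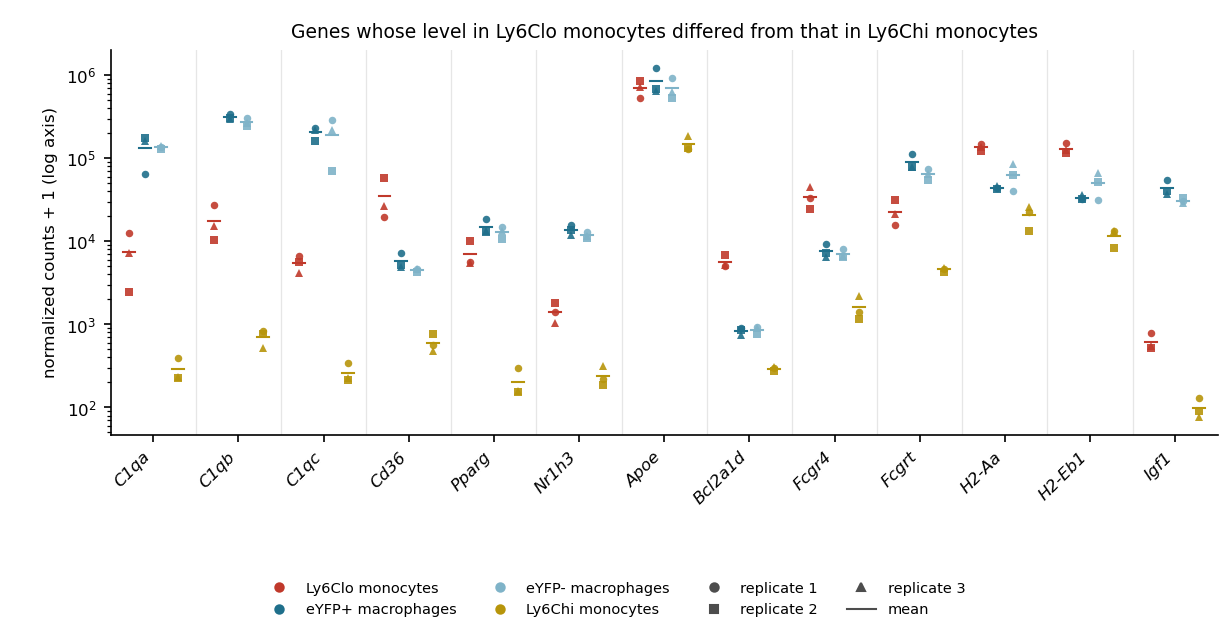
Normalized counts plus 1 (log axis) of 13 genes in the 12 libraries, with group means as short lines. In each of the 13 genes Ly6Clo monocytes lie above Ly6Chi monocytes. C1qa, C1qb, C1qc, Nr1h3, Pparg, Fcgrt and Igf1 lie below both macrophage groups, Cd36, Bcl2a1d, Fcgr4, H2-Aa and H2-Eb1 lie above them, and Apoe overlaps them.

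The list of cholesterol export and targets of the sterol receptor LXR held 1 higher, 3 lower and 8 members that did not pass, of 12, beside 13.2% higher and 17.0% lower over all tested genes; without Ly6Clo replicate 1 there were 5 lower, and the higher one was not called without Ly6Clo replicate 1 or 3. Nr1h3, which encodes LXR alpha, had 1402, 1801 and 1045 normalized counts in Ly6Clo monocytes, 10917 to 15823 in macrophages and 187 to 311 in Ly6Chi monocytes. The log2 fold change was -3.18 ± 0.26 against macrophages and 2.57 ± 0.31 against Ly6Chi monocytes (DESeq2 adjusted p = 1.21e-31 and 2.25e-14). Its target Abca1, a cholesterol exporter, was lower than in macrophages (-2.90 ± 0.40) and higher than in Ly6Chi monocytes (1.87 ± 0.47, adjusted p = 1.06e-11 and 0.00185). Lpl, lipoprotein lipase, was lower (-3.29 ± 0.41, adjusted p = 1.45e-14) and did not pass against Ly6Chi monocytes (-0.71 ± 0.47, adjusted p = 0.405). Apoe, the apolipoprotein that carries cholesterol away, was at 530334, 860665 and 715666 in Ly6Clo monocytes and 537065 to 1230587 in macrophages, which overlapped (-0.14 ± 0.32, 95% interval -0.77 to 0.49, adjusted p = 0.802). In Ly6Chi monocytes Apoe had 128782 to 186769, lower than in Ly6Clo monocytes (adjusted p = 1.77e-07). Pparg, a receptor for fatty acids, had 5690.4, 10080.5 and 5480.4 against 10570.0 to 18528 (-0.97 ± 0.33, adjusted p = 0.0139) and 151 to 295 in Ly6Chi monocytes. The difference of Pparg from macrophages was no longer called without Ly6Clo replicate 1 (-0.83, adjusted p = 0.0849), without replicate 3 (-0.80, adjusted p = 0.1) or after the GC and length correction (-0.33, adjusted p = 0.565).

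Receptors for adhesion and movement were higher in Ly6Clo monocytes, 12 of 18 tested, while 2 were lower and 4 did not pass, with a median of 1.78; without Ly6Clo replicate 2, 14 of 19 were higher, a count that then includes Itgam, a gene of the monocyte gate. Ccr2, the chemokine receptor by which monocytes leave the marrow, had 22364, 25456 and 15711 normalized counts in Ly6Clo monocytes and 120.1 to 882 in macrophages (5.85 ± 0.37, DESeq2 adjusted p = 1.75e-54). It was still below the 74943 to 85956 of Ly6Chi monocytes (-1.92 ± 0.42, adjusted p = 0.000236). Cx3cr1, the fractalkine receptor, had 31005, 6816 and 24749.5 against 1320.4 to 3571 (3.02 ± 0.45, adjusted p = 4.52e-10) and did not pass against Ly6Chi monocytes (0.16 ± 0.52, adjusted p = 0.913). Itga4, Itgb7 and Itgb2, chains of leukocyte integrins, were higher by 2.92 ± 0.31, 4.82 ± 0.41 and 1.26 ± 0.18. Itgam, the CD11b chain on which the monocytes were gated, had 4549, 2287 and 4910.5 against 20.1 to 200.1 (5.30 ± 0.59); DESeq2 gave it no adjusted p because of an outlying count, and without that rule it was 1.87e-17. Its fold change was 6.19 without eYFP- replicate 2. Cxcr4, which holds cells in the marrow, had 1300.4, 999.5 and 631 against 38.3 to 146 (3.55 ± 0.46, adjusted p = 4.28e-13). The ligands of LFA-1 parted. Icam2 was higher, with 2147, 1676 and 2742 against 82.3 to 439 (3.55 ± 0.26, adjusted p = 2.53e-41), and Icam1 was lower, with 3152, 1660.0 and 2678 against 10392 to 14263 (-2.21 ± 0.25, adjusted p = 6.61e-17). Fpr1, a receptor for formyl peptides, was lower, with 1079.7, 1566 and 1399.8 against 11717 to 26127 (-3.62 ± 0.39, adjusted p = 2.43e-18). Neutrophils carry Itgam, Itgb2, Itgal and Fpr1 too, and their markers were higher in the Ly6Clo libraries, although the sort took Gr1low cells, a gate meant to leave out neutrophils; their part was not tested.

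Regulators of actin in leukocytes were higher, 11 of 17, while 6 did not pass, with a median of 0.999. Lsp1, which binds F-actin, had 82227, 104606 and 89283 normalized counts in Ly6Clo monocytes, 238, 187 and 396 in eYFP+ macrophages and 1989, 2399.5 and 2797 in eYFP- macrophages (6.83 ± 0.27, DESeq2 adjusted p = 3.1e-134). Coro1a, a coronin, had 107737, 25699.7 and 105552 against 365 to 4817 (5.76 ± 0.46, adjusted p = 7.68e-34), lowest in replicate 2. The myosins Myo1f and Myo1g were higher by 3.19 ± 0.25 and 2.40 ± 0.39, and Capg, which caps filaments, by 3.40 ± 0.37 (2.71 without Ly6Clo replicate 2, where it was highest). Vav1, an activator of Rac, did not pass (0.14 ± 0.35, adjusted p = 0.819) except after the GC and length correction (0.92, adjusted p = 0.00883). Against Ly6Chi monocytes the list had a median of -0.32, and Capg was lower than there (-2.88 ± 0.43, adjusted p = 2.9e-09).

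Fc receptors did not move as a family. Of 6 tested 2 were higher, 2 lower and 2 did not pass, beside 13.2% higher and 17.0% lower over all tested genes. Fcgr4, the activating receptor of Ly6Clo monocytes, had 33272, 24735 and 45745 normalized counts against 6423 to 9213 in macrophages (2.24 ± 0.30, DESeq2 adjusted p = 1.32e-12). Fcgr2b, the inhibitory receptor, had 15952, 23259.9 and 17762 against 1728 to 4862 (2.77 ± 0.33, adjusted p = 2.34e-15). Both were higher, one that activates and one that inhibits. Fcgr1, the high-affinity receptor, was lower, with 2718, 1999 and 2241 against 13038 to 23236 (-2.80 ± 0.23, adjusted p = 5.38e-33), and it was lower than in Ly6Chi monocytes too (-1.65 ± 0.26, adjusted p = 3.69e-08). Fcgrt, the receptor that recycles IgG, was lower (-1.73 ± 0.27, adjusted p = 2.72e-09), a call that the GC and length correction ended (-0.84, adjusted p = 0.143). Fcgr3 had 20698, 43229 and 29012 against 25521 to 84439.7 and did not pass (-0.49 ± 0.38, adjusted p = 0.35).

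Genes of MHC class II were higher in part, 4 of 7, while 3 did not pass. H2-Aa had 150696, 121967 and 135869.6 normalized counts in Ly6Clo monocytes, 43636, 42725 and 47100.4 in eYFP+ and 40900.0, 63159 and 85879.8 in eYFP- macrophages (1.36 ± 0.30, DESeq2 adjusted p = 5.75e-05). H2-Eb1 had 152332, 114634 and 124849.9 against 31498 to 66780.4 (1.67 ± 0.29, adjusted p = 1.58e-07), and H2-Ab1 had 208412, 637009.6 and 209705 against 57113 to 147009.8 (1.90 ± 0.43, adjusted p = 7.45e-05). Replicate 2 was far above the others in H2-Ab1, and without it the difference was 1.20 (adjusted p = 0.00173). Cd74, the invariant chain, was higher by 1.26 ± 0.44 (adjusted p = 0.016), but not without replicate 2 (0.91, adjusted p = 0.0967). Ciita, the activator of these genes, had 5398, 725 and 4497 against 584 to 2274 and did not pass (1.30 ± 0.59, adjusted p = 0.0812); without replicate 2 it did (1.84, adjusted p = 0.000959), as it did with the GC and length correction (1.71, adjusted p = 6.56e-05). H2-DMa, which loads peptides, did not pass (-0.13 ± 0.25, adjusted p = 0.742). No member of this list was past a 2-fold change when the test was made against that size. Dendritic cells express these genes at high level. The dendritic cell list summed to 1132, 3084 and 1113 TPM in Ly6Clo replicates 1, 2 and 3 and to 529 to 1309 in macrophages. Replicate 2 alone lay above the macrophage range. The part of such cells was not tested.

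Of 17 interferon-stimulated genes 4 were lower and 13 did not pass, beside 17.0% of all tested genes that were lower. Without eYFP+ replicate 1, 3 were higher. Ifi44 had 458, 216 and 185 normalized counts against 1819 to 3276 (-3.00 ± 0.39, DESeq2 adjusted p = 4.66e-13), and Rsad2, the antiviral enzyme viperin, had 2089.7, 831 and 1638 against 3751 to 5059 (-1.51 ± 0.31, adjusted p = 1.01e-05). The same list had a median of -1.61 against Ly6Chi monocytes.

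Transcription factors differed in both directions. Of 17 factors known from monocytes 8 were higher and 1 was lower than in macrophages (3 lower without Ly6Clo replicate 2), and of 15 known from macrophages 8 were lower and 6 higher. Klf4, which monocytes need to form, had 1072, 1882 and 937 normalized counts against 58.5 to 72 (4.31 ± 0.29, DESeq2 adjusted p = 1.27e-46). Nr4a2, a relative of Nr4a1, had 163, 293 and 91.4 against 0 to 17.2 (4.57 ± 0.72, adjusted p = 3.3e-09; 5.58 without eYFP+ replicate 2). Irf8, a factor of monocyte and dendritic cell precursors, was the member of the monocyte list that was lower, with 8732, 1789 and 8793 against 5878 to 40640.3 (-2.25 ± 0.56, adjusted p = 0.000457), and its groups overlapped at eYFP+ replicate 1. Tcf7l2, a partner of beta-catenin, had 6088, 57449.8 and 8996 against 21356 to 63265 and did not pass (-0.42 ± 0.60, adjusted p = 0.656). Replicate 2 alone lay in the macrophage range, and without it Tcf7l2 was lower (-2.05, adjusted p = 3.38e-07).

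On the macrophage side, Spic, which red pulp and marrow macrophages need, had 1274, 2783 and 1299 against 46350.2 to 123414 with a median of 58378 (-5.26 ± 0.38, DESeq2 adjusted p = 4.45e-42). Maf, a factor that holds macrophages in the differentiated state, was lower (-3.36 ± 0.37, adjusted p = 1.2e-17). Tfec, of the family that binds the motif shown above, had 79.8, 126 and 106 against 2033 to 4025 (-4.82 ± 0.23, adjusted p = 1.92e-95). Bhlhe41, which self-renewing macrophages express, had 0.849, 2.68 and 1.02 against 87.6 to 384, so that it was close to 0 in each Ly6Clo library. Not all members of the list were low. Id3, an inhibitor of E proteins known from Kupffer cells, had 524, 675 and 1038 against 32.9 to 254 (2.84 ± 0.39, adjusted p = 4.44e-12). Atf3 and Irf4, which are induced on activation, were higher by 2.53 ± 0.34 and 3.11 ± 0.44 (adjusted p = 5.32e-12 and 2.03e-11) and did not pass against Ly6Chi monocytes (-0.35 and -0.55).

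Of 18 secreted factors tested 4 were higher, 8 lower and 6 did not pass, beside 13.2% higher and 17.0% lower over all tested genes. Igf1, insulin-like growth factor, had 781, 518 and 555 normalized counts against 28640.3 to 54875 with a median of 35522 in macrophages (-5.90 ± 0.26, DESeq2 adjusted p = 3.28e-110), yet more than the 75.3 to 128 of Ly6Chi monocytes (2.66 ± 0.31, adjusted p = 6.52e-15). Kitl, stem cell factor, had 41.6, 145 and 85.3 against 1203 to 5380.1 (-5.00 ± 0.54, adjusted p = 1.63e-18). Il18 had 626, 1655 and 796 against 9798 to 18432 (-3.64 ± 0.34, adjusted p = 3.5e-25). None of these overlapped the macrophage range. Bmp2, a bone morphogenetic protein, had 51.8, 1.34 and 0 against 484 to 3351 (-6.81 ± 1.51, adjusted p = 5.5e-05), and its fold change ran from -11.73 without Ly6Clo replicate 1, which leaves hardly a count, to -6.21 without replicate 3. Il10 was lower, at 15.3, 0 and 17.3 against 81.8 to 294 (-3.68 ± 0.66, and -3.08 without Ly6Clo replicate 2). Il1b went the other way, with 4499.5, 3944 and 4604 against 244 to 800.0 (3.28 ± 0.36, adjusted p = 2.33e-18). Tnf, with 842, 359 and 583 against 110.5 to 238, and Hgf, with 819.9, 824 and 418 against 68.6 to 172, were higher as well (1.71 ± 0.34 and 2.51 ± 0.37, adjusted p = 6.06e-06 and 1.43e-10). Neutrophils, which the Gr1low gate was meant to leave out, also make Il1b; the part of the neutrophil RNA given above was not tested.

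The Bcl2 family holds genes that protect cells and genes that promote death. Of its 14 members 6 were higher and 2 lower, beside 13.2% higher and 17.0% lower over all tested genes. Only 1 was lower without Ly6Clo replicate 1 or 2, eYFP+ replicate 2 or 3, or eYFP- replicate 1 or 3. Bcl2 itself had 1829, 1731 and 1453 normalized counts in Ly6Clo monocytes, 5.15, 42 and 65.9 in eYFP+ and 212, 235 and 250.2 in eYFP- macrophages (4.15 ± 0.51, DESeq2 adjusted p = 1.69e-14), and it was higher than in Ly6Chi monocytes by 3.56 ± 0.59 (adjusted p = 1.72e-07). Mcl1 had 7693, 7736 and 5527 against 1785 to 3199 (1.50 ± 0.26, adjusted p = 8.04e-08) and did not pass against Ly6Chi monocytes (0.01 ± 0.30, adjusted p = 0.997). Bcl2a1d had 5068, 6865 and 5239.6 against 749 to 941 (2.75 ± 0.20, adjusted p = 6.91e-42), uncertain because of near-identical copies. Genes that protect and genes that kill were both among those higher. Bid and Pmaip1, which promote death, were higher by 1.77 ± 0.28 and 2.92 ± 0.42 (adjusted p = 5.18e-09 and 8.25e-11; Pmaip1 2.28 without Ly6Clo replicate 2). Bcl2l1, which protects and is strongly expressed in red cell precursors, was lower, with 1129, 372 and 1053 against 1310.3 to 2329.8 (-1.18 ± 0.35, adjusted p = 0.00423).

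Genes of cell division were lower in 12 of 25, and the others did not pass; the GC and length correction left 7 lower. The list had a median of -0.32 against eYFP+ and -1.74 against eYFP- macrophages. Mcm2, of the helicase that opens DNA for copying, had 1103, 442 and 1102 normalized counts in Ly6Clo monocytes, 2452, 2201 and 2066 in eYFP+ and 7855, 4136 and 5726 in eYFP- macrophages (-2.04 ± 0.35, DESeq2 adjusted p = 9.27e-08). Rrm2, which makes nucleotides, had 755, 1754 and 877 against 872 to 16092 with overlap (-2.05 ± 0.56, adjusted p = 0.00139). It was not called by edgeR with a replicate block (-1.73, edgeR adjusted p = 0.0503). Cdk1, the kinase that starts mitosis, had 345, 194 and 469 against 543 to 1899.6 (-1.70 ± 0.37, DESeq2 adjusted p = 4.7e-05). Red cell markers were higher in the same libraries, most in eYFP- macrophages. These precursors divide, and their part was not tested.

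Enzymes of glycolysis were higher in 8 of 16 and lower in 1, a count that ran from 5 without Ly6Clo replicate 1 to 11 without replicate 2 and 13 after the GC and length correction. Pkm, pyruvate kinase, had 14476, 17078 and 17686 normalized counts against 4333 to 5701 (1.73 ± 0.18, DESeq2 adjusted p = 5.6e-21), Pfkp, a phosphofructokinase, 4263, 4381 and 5891 against 1596 to 2294 (1.31 ± 0.21, adjusted p = 2.99e-09) and Eno1, the common enolase, 7560.3, 8553 and 9938 against 3009 to 5277 (1.16 ± 0.26, adjusted p = 8.88e-05). Per length, Eno3 reached 542 to 910.1 TPM in Ly6Clo monocytes and Eno1 192 to 236 TPM, against 4.44 to 11.7 and 79 to 120.3 TPM in macrophages. Hk3, the hexokinase of myeloid cells, was lower, with 3225, 1522 and 3257 against 7019.6 to 8138 (-1.49 ± 0.27, adjusted p = 3.17e-07).

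**Figure D4:**
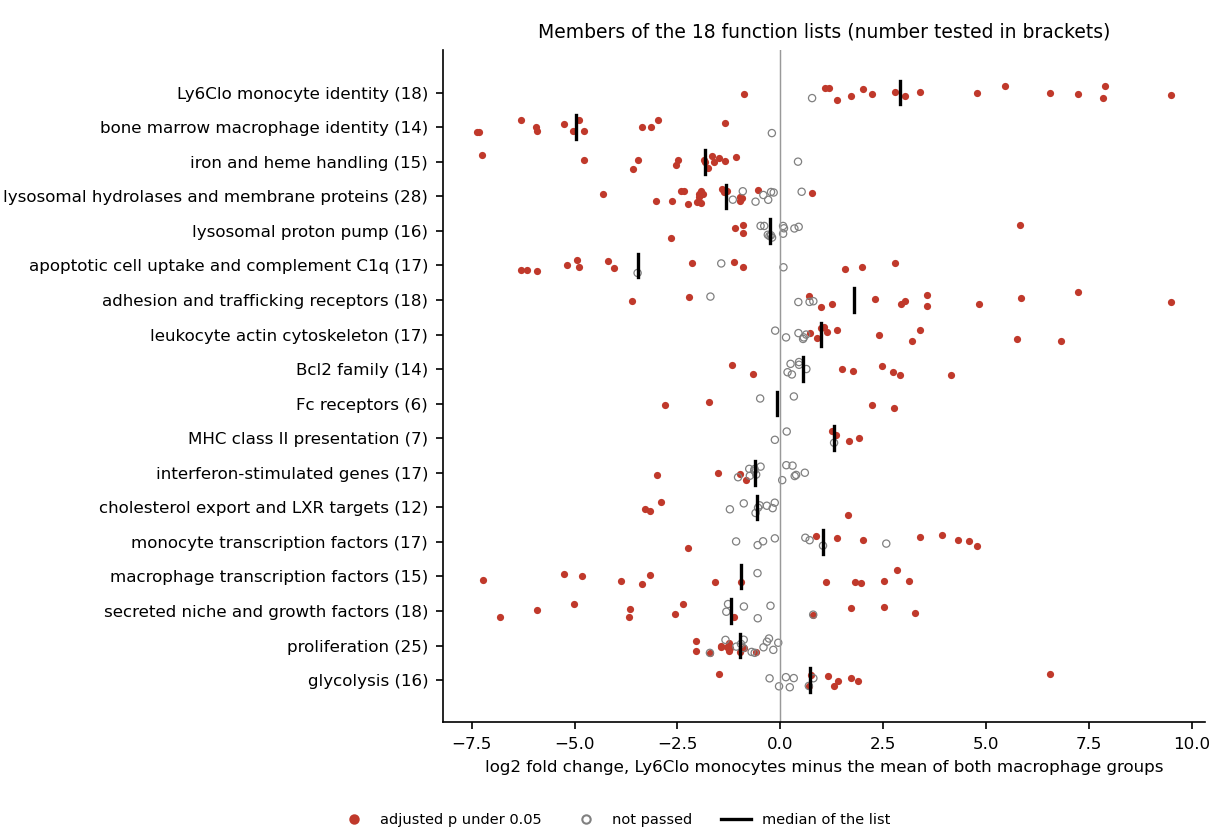
Log2 fold change (horizontal axis) of each tested member of 18 function lists, Ly6Clo monocytes minus the mean of both macrophage groups. Filled points passed the DESeq2 adjusted p of 0.05, open points did not, and the black bar is the median of the list. Most filled points of the identity, adhesion and actin lists lie right of 0, and most of the macrophage, iron, lysosomal hydrolase and C1q lists lie left of it.

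Each macrophage group was also taken alone. Both contrasts share the Ly6Clo libraries, so their values are given side by side. Against eYFP+ macrophages 28% of 20749 genes were called, and against eYFP- macrophages 26.3% of 21567. The macrophage identity list had a median of -5.32 against eYFP+ and -4.67 against eYFP- macrophages, the iron list -1.97 and -1.73, the hydrolase list -1.47 and -1.10, and the proliferation list -0.32 and -1.74. Between the macrophage groups themselves 2.04% of 21567 genes were called, and 1.88% were lower in eYFP+ macrophages. Lsp1 was higher than in eYFP+ macrophages by 8.39 ± 0.32 and than in eYFP- macrophages by 5.26 ± 0.31, and the macrophage groups themselves differed by -3.13 ± 0.32 (DESeq2 adjusted p = 1.84e-18). Spn was higher by 7.41 ± 0.70 and 3.51 ± 0.68, with -3.90 ± 0.71 between the macrophage groups (adjusted p = 1.38e-05). Bcl2 was higher by 5.46 ± 0.60 and 2.85 ± 0.59, with -2.62 ± 0.60 between them (adjusted p = 0.00183). Cd163, Slc40a1 and Ctsd had log2 fold changes of -6.29, -7.56 and -4.43 against eYFP+ and of -5.57, -6.93 and -4.20 against eYFP- macrophages. Fewer genes, 8.62% of 21567, were called between Ly6Clo and Ly6Chi monocytes.

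The fold changes of the function lists were close with and without the library that stood apart. In the plot that sets them against each other, 273 genes have both values, 10 had another sign, none of those 10 was called in either fit, and 6 moved by more than 1 on the log2 scale. Without Ly6Clo replicate 2, 13 iron genes, 18 hydrolases, 11 uptake genes and 14 cell division genes were lower, and 10 actin regulators, 4 MHC class II genes and 6 Bcl2 family genes were higher. Over all function lists 76 genes were higher and 103 lower of 274 tested without Ly6Clo replicate 2, and edgeR with all libraries gave 72 and 92 of 274.

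**Figure D5:**
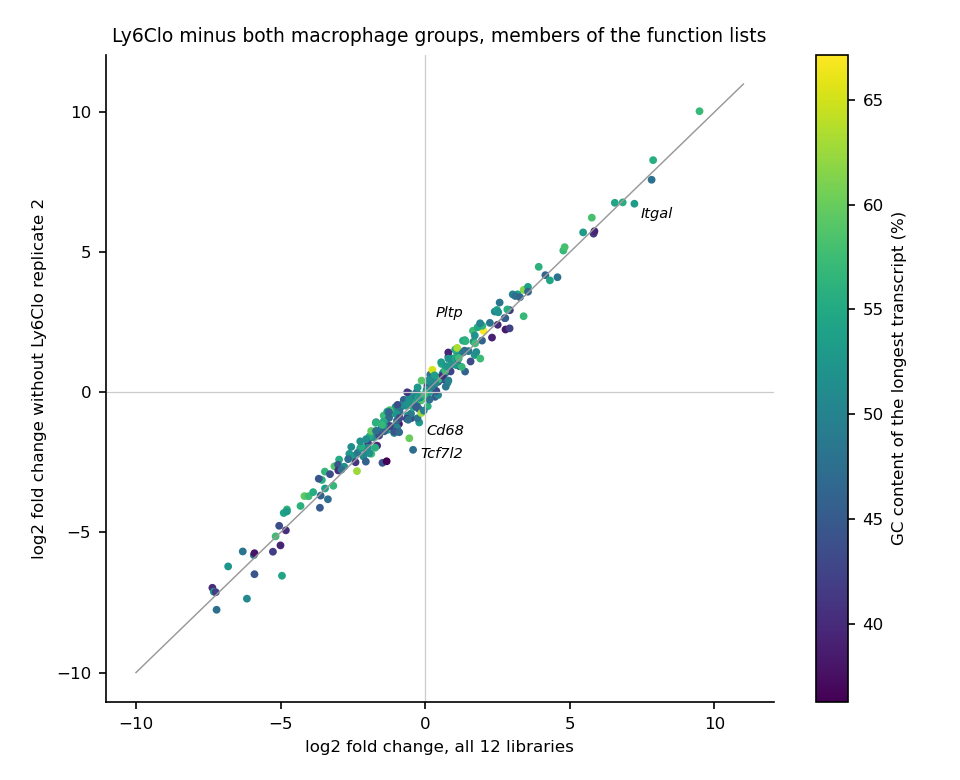
Log2 fold change of 273 genes of the function lists with all 12 libraries (horizontal axis) and without Ly6Clo replicate 2 (vertical axis), coloured by the GC content of the longest transcript in percent. The line marks equal values. Most points lie near it, and Cd68 and Tcf7l2 lie below it, at -1.08 and -2.05 against -0.21 and -0.42.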

How the data were processed

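RNA of Ly6Clo monocytes, Ly6Chi monocytes and eYFP+ and eYFP- macrophages was amplified as full-length cDNA and sequenced without molecular identifiers. The deposited counts are whole read pairs per gene, unnormalized: the authors trimmed and error-corrected reads, removed ribosomal RNA, aligned with segemehl to GRCm39 and counted unambiguous pairs on exons with featureCounts. Use of strand is not given in the sources used here, so reads of overlapping and antisense genes cannot be told apart. The deposited TPM values were scaled to gene length and library by the authors and serve here for levels between genes. A deposited table of variance-stabilised counts was not used. The table lists 56953 genes, of which 14020 had no count, and 0 of its sample columns were left unmapped. Symbols, GC content and length came from GENCODE M21 (91.4% of identifiers matched), and promoters from the RefSeq table of build GRCm38.p6.

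Libraries were grouped by their labels. DESeq2 1.42.0 in R 4.3.3 was fitted once to all 12 libraries, without a replicate block, and the Wald test compared Ly6Clo with the equally weighted mean of both macrophage groups. Genes were called at a Benjamini-Hochberg adjusted p under 0.05. Alternatives used edgeR 4.0.16, limma 3.58.1 on log2(TPM + 1) and on log2(TPM + 0.1), a correction for GC content and length by smooth curves (mgcv 1.9.3), other scalings and filters, a test against a 2-fold change, and each library left out in turn. Scripts were tested on simulated counts. The text names members of 28 lists (18 by function, 10 of cell markers; 393 of 394 genes matched) and, in each direction, the 10 genes with the largest test statistic among those with a mean of at least 50 normalized counts, no overlap of groups and a call also without Ly6Clo replicate 2. Some members of the lists are not reported here. The lists, rules and tests were chosen with earlier results of these data known. Totals of 26390927 to 48618187 counts per library set the precision, and repeated amplification of 1 molecule is not removed from them.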

Additional observations from a re-analysis of the deposited data

Results flagged for a closer look

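The difference of Ly6Clo monocytes from macrophages was not the same against eYFP+ and eYFP- macrophages for 22 of the genes named here. Because both contrasts use the same Ly6Clo libraries, the test of this difference is the DESeq2 contrast of eYFP+ minus eYFP- macrophages, and a negative log2 value means a lower level in eYFP+ macrophages. The 22 values were negative. Over all genes 439 of 21567 tested (2.04%) were called in this contrast, and 406 of them were lower in eYFP+ macrophages. The named genes were in part chosen for large differences from macrophages, so the 22 cannot be compared with that share.

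Of the 22, 19 were higher in Ly6Clo monocytes than in the macrophage mean. Leaving aside the markers of other cells, these were Susd3 (-1.50 ± 0.33), Tcea3 (-2.55 ± 0.53), Lsp1 (-3.13 ± 0.32), Sgms1 (-1.45 ± 0.27), Ceacam1 (-1.52 ± 0.45), Spn (-3.90 ± 0.71), Itgal (-1.76 ± 0.47), Itgb7 (-2.42 ± 0.47), Icam2 (-2.09 ± 0.30), Ccr2 (-1.80 ± 0.43), Coro1a (-2.66 ± 0.53), Bcl2 (-2.62 ± 0.60), Id3 (-1.58 ± 0.45) and Mfge8 (-2.47 ± 0.51). In each of these 14, eYFP- macrophages were nearer to Ly6Clo monocytes than eYFP+ macrophages were. The adjusted p ran from 1.84e-18 for Lsp1 to 0.0355 for Ceacam1.

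For the cell division gene Mcm2 the value was -1.40 ± 0.41 and for Klf1, a factor of red cell precursors, -2.63 ± 0.61, and both were higher in eYFP- macrophages than in Ly6Clo monocytes. Among markers of other cells 5 genes were higher in Ly6Clo monocytes than in the macrophage mean, and Mpo was lower. Of the 5, Flt3 was not called when the macrophage libraries were taken as 1 group (2.30, DESeq2 adjusted p = 0.18). Between the macrophage groups these markers gave Ngp (-3.73 ± 0.92), Mpo (-4.49 ± 0.73), Cd209a (-3.33 ± 0.80), Flt3 (-4.87 ± 0.83), Klrd1 (-2.60 ± 0.58) and Ighm (-1.28 ± 0.39). The neutrophil and red cell lists summed higher in the eYFP- than in the eYFP+ libraries in the same way, and the part of such cells in these differences was not tested.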

How the results depend on the processing

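Of the calls between Ly6Clo monocytes and both macrophage groups, 6762 in all, a test against a 2-fold change left 2341 (891 higher and 1450 lower), and leaving out 1 library at a time gave 5919 to 6837. The 2955 higher genes became 4721 with the GC and length correction, 1714 with limma on log2(TPM + 0.1) and 1758 on log2(TPM + 1). Against eYFP+ macrophages the 2-fold test left 2140 of 5804 genes and against eYFP- macrophages 1978 of 5665. The comparison with Ly6Chi monocytes moved under more of the alternatives: 1860 genes became 829 with edgeR, 1091 with edgeR without Ly6Clo replicate 2, 874 and 969 with limma on log2(TPM + 0.1) and log2(TPM + 1), 1145 with limma at a mean TPM of at least 1, 1191 with only those libraries in the fit, 367 in the 2-fold test, and 1205 to 2290 with 1 library left out. The cause of these shifts was not tested.

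Libraries with the same replicate number did not deviate together in every pair. Correlations between Ly6Clo and macrophage libraries over 2000 genes were -0.59 and -0.55 for number 1, -0.54 and -0.39 for number 2, and 0.39 and 0.21 for number 3. Those between eYFP+ and eYFP- libraries were all positive, at 0.39, 0.21 and 0.07. The numbers were not taken as pairs, but these correlations cannot show that the libraries are unpaired. The eYFP+ minus eYFP- values above come from the fit without a replicate block. With a replicate block DESeq2 called 6549 genes and edgeR 4461 (2379 lower); edgeR with the replicate block called 3674 against eYFP+ macrophages, 3417 against eYFP- macrophages and 537 against Ly6Chi monocytes.

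Among named genes, 145 of 151 kept their direction and side of the threshold without Ly6Clo replicate 2, 133 of 148 with the GC and length correction, 151 of 153 with edgeR and 118 of 151 in the 2-fold test. Signs changed among values that were not called in either analysis: with the GC and length correction Cd68 was at 0.41, Tcf7l2 at 0.40, Apoe at 0.77 and H2-DMa at 0.74, and those of Cd68, Tcf7l2, Apoe, Vav1 and Prg2 also changed in other alternatives. The eosinophil gene Prg2 changed sign with a call: its log2 fold change of 2.23 (DESeq2 adjusted p = 0.375) became -6.59 without Ly6Clo replicate 3 (adjusted p = 1.32e-08) and ran up to 2.86 without Ly6Clo replicate 2. The Ly6Clo group holds 3 libraries, 1 of which stood apart, and the precision of every value here is limited by that number.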
